A study of Mus musculus with 41 samples.

Results

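This account follows 10 genes of protein folding in the endoplasmic reticulum (ER) through mouse livers and liver tumours. They are Hspa5, Hsp90b1, Calr, Dnajb9, Sdf2l1, Pdia4, Creld2, Manf, Herpud1 and Xbp1. The genes were chosen by name, and all 10 of 10 were found among the 24511 genes of the expression table. All 10 also passed the filter on low values, which kept 12337 genes.

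Secreted and membrane proteins fold in the ER, and hepatocytes, which secrete most plasma proteins, carry a heavy load of this work. When unfolded proteins build up, the ER sensors IRE1, PERK and ATF6 start the unfolded protein response (UPR). IRE1 splices the Xbp1 messenger, ATF6 is cut and enters the nucleus, and both raise the genes of chaperones, foldases and ER-associated degradation (ERAD). PERK slows translation and raises ATF4 and its targets, such as Atf3, Ddit3 and Trib3. Urokinase made by hepatocytes from a transgene is thought to burden the ER, so genotypes that carry Mup in their names are set against B6 below.

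Bulk polyA RNA-seq covered 35 libraries of male C57BL/6 mice in 11 groups. The tumour groups (HCC) were CD8kMup, IgAkMup and MupHe, and the steatohepatitis groups (NASH) were IgAkMup and MupHe, all on a high-fat diet (HFD). Fatty livers on HFD without NASH (HFD control) came from B6 and IgAkCLM mice. Livers called healthy and marked NC, a term that the labels do not explain, came from MupHe, IgAkMup, CD8kMup and B6 mice. Each group held 3 libraries, except IgAkMup HCC and MupHe HCC with 4. Mup is read here as the transgene in which a major urinary protein promoter, active in hepatocytes, drives urokinase, but the labels spell out neither this nor the other parts of the names, and give no ages. Whether each replicate was its own animal is not stated there, so a p covers only the spread between these samples.

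The values are regularized log2 (rlog) values as the authors deposited them, so a difference of 1 is a doubling. They are not scaled for gene length, and levels are compared between groups but not between genes. Depth is unknown, since no counts were used. Differences are given on the log2 scale with standard errors, and a gene passed when its adjusted p from limma (Benjamini-Hochberg, over 12337 genes) lay below 0.05. Column names carry unexplained tags: SS N marks B6 HFD control and IgAkMup NASH, Tri N marks IgAkCLM HFD control and MupHe NASH, SS H all tumours and Tri NC all NC livers. On the second principal component, with 12.6% of the variance, the tumours MupHe HCC 3, IgAkMup HCC 5 and IgAkMup HCC 9 stood apart at 28.4 to 35.6, against -24.7 to 5.12 in the other tumours. Alb, the albumin gene of hepatocytes, averaged 18.89 to 19.73 in the 11 groups. In bulk tissue, fewer cells of a type and less RNA per cell cannot be told apart.

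Urokinase itself (Plau) checked the Mup label only weakly. It averaged 4.803 ± 0.06 in MupHe NC, 4.89 ± 0.36 in IgAkMup NC and 4.71 ± 0.31 in CD8kMup NC livers, against 4.38 ± 0.17 in B6 NC livers (SD, n = 3 each). Exact two-sided permutation tests gave p = 0.1 for MupHe and 0.2 for both others, where 0.1 is the smallest p that 3 against 3 libraries allow, and all 3 adjusted values were 0.2. On HFD it averaged 5.35 ± 0.55 in IgAkMup NASH and 5.72 ± 0.39 in MupHe NASH. The HFD controls, without Mup in their names, averaged 5.24 ± 0.34 in B6 and 4.85 ± 0.15 in IgAkCLM. These control means lay within or above those of the Mup NC livers.

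The values of the 10 genes were correlated from library to library. Over all 35 libraries the median Pearson r of the 45 pairs was 0.54, against -0.0022 for the median pair of all kept genes and 0.60 for the 95th percentile of all pairs. After group means were taken away, which leaves only differences between livers of the same group, the median r was 0.73, against -0.0007 for the median pair of all genes and 0.46 for the 95th percentile. Hspa5, which encodes BiP, the main Hsp70 chaperone of the ER, and Manf, an ER protein that binds BiP, had the closest pair of deviations (r = 0.91). These correlations are descriptions over libraries that share groups and normalization.

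By deviations from group means, Herpud1 and Xbp1 followed the others least. Herpud1 encodes a membrane protein of the ERAD complex, and its median r with the other members was 0.42 in deviations and 0.45 in values. Xbp1 encodes the transcription factor that IRE1 activates by splicing; its median r was 0.56 in deviations and 0.23 in values. In values the lowest after Xbp1 was Dnajb9 (0.40). The table holds a single value for Xbp1, so spliced and unspliced forms were not measured. Among genes outside the 10, the nearest to their scaled mean over all libraries were Dnajb11 (r = 0.92), Ssr3 (0.88), Hyou1 (0.86), Sec22b (0.82) and Gmppb (0.81). By deviations from group means they included Hyou1 (0.92), Dnajb11 (0.91), Ssr3 (0.86) and P4hb (0.85). Hyou1 and Dnajb11 encode ER chaperones, P4hb a protein disulfide isomerase and Ssr3 a subunit of the translocon-associated protein complex.

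**Figure D1:**
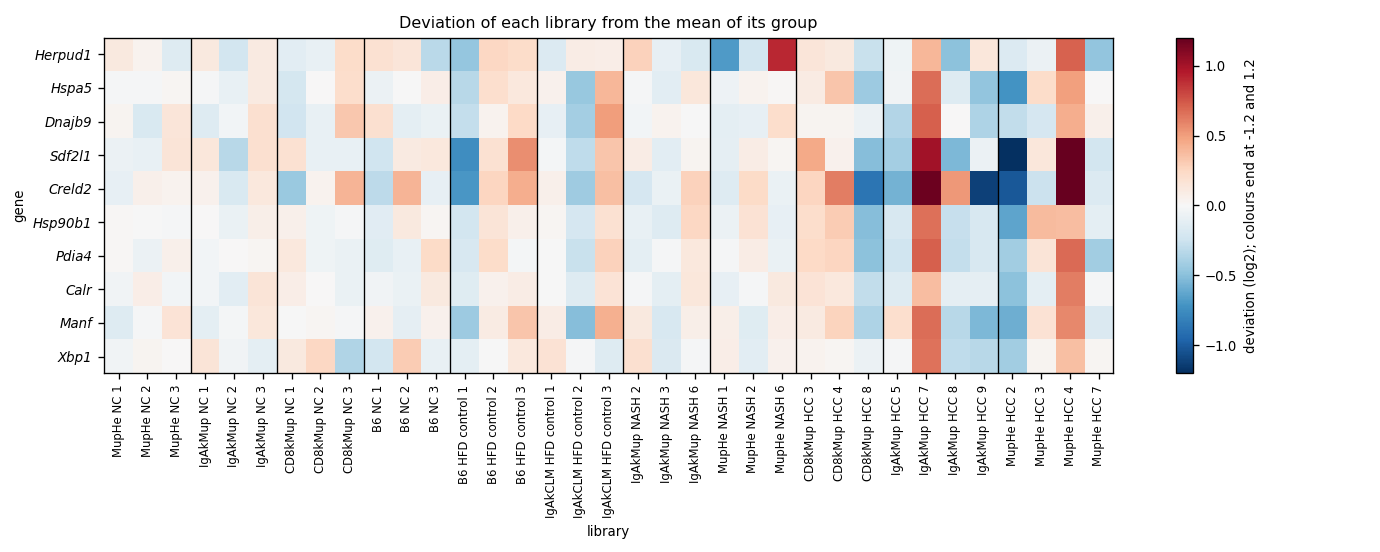
Deviation of each of the 35 libraries from the mean of its own group (colour, log2; columns are libraries, rows the 10 genes). In IgAkMup HCC 7 and MupHe HCC 4 all 10 genes lay above the group mean, and in MupHe HCC 2 all 10 lay below it.

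The promoters of the members were read for the ER stress response element (ERSE), the site through which ATF6 and XBP1 are known to act. The search took CCAAT, 9 bases of any kind and CCACG, on both strands, in the RefSeq windows (GRCm38.p6) from 250 bases before each gene's start to 50 after it. Of the 9 members with a window, 4 held it (Hspa5, Creld2, Hsp90b1 and Calr), against 39 of all 32851 windows, or 0.119%. The related ERSE-II was taken as ATTGG, 1 base and CCACG, and was held by Herpud1 and by 12 windows, or 0.0365%. The stretches are shown because they carry these elements. They run 5′ to 3′ on the gene's strand with up to 25 bases on either side (5 for Hspa5), all upstream of the RefSeq start, and capitals mark both parts of each element or their reverse complement. The letters searched were not found in the windows of Sdf2l1, Pdia4, Dnajb9 and Xbp1, which says nothing of the factors. A match is a description and not a measured binding site. The members were chosen by name as UPR genes, so their share beside that of all windows is no test of enrichment. The element of Hspa5 lies in the first, untranslated exon of a longer GENCODE transcript, whose gene spans chr2:34771970-34777547 (GRCm38), and the other stretches shown lie outside the annotated exons of their genes.
Hspa5 (chr2:34772020-34772048, plus strand): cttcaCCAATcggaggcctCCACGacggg
Creld2 (chr15:88819495-88819563, plus strand): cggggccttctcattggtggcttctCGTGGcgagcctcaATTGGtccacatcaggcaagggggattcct
Calr (chr8:84847050-84847118, minus strand): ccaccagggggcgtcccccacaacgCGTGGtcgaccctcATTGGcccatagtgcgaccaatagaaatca
Hsp90b1 (chr10:86705510-86705681, minus strand): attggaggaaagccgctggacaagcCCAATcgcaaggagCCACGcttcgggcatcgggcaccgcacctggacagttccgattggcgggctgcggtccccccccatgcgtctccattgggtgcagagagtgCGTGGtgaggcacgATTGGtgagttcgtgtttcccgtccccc
Herpud1 (chr8:94386352-94386412, plus strand): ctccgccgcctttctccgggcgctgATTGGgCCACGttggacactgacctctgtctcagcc

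The single elements of Hspa5, Creld2 and Calr spanned positions -65 to -47, -126 to -108 and -162 to -144 from the RefSeq start, and those of Hsp90b1 -212 to -194 and -107 to -89. The ERSE-II of Herpud1 spanned -52 to -42. Among deviations, Hspa5 had a median r of 0.81 with the other members, Calr of 0.80, Hsp90b1 of 0.79 and Creld2 of 0.75, and Herpud1 with the ERSE-II of 0.42. Without a match, Sdf2l1 stood at 0.80, Pdia4 at 0.79, Dnajb9 at 0.65 and Xbp1 at 0.56.

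Across the 11 groups the order of levels differed by gene. CD8kMup tumours had the highest mean of 6 of the 10 genes (Hspa5, Sdf2l1, Creld2, Pdia4, Calr and Manf). Herpud1 was highest in B6 HFD control livers, Dnajb9 in MupHe NC, Hsp90b1 in CD8kMup NC and Xbp1 in B6 NC livers. Most neighbours in these orders lay within the spread: of the 10 gaps between neighbouring group means, 1 exceeded the SD within groups for Herpud1, Dnajb9, Sdf2l1 and Creld2, and none did for the other 6 genes.

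The gap for Herpud1 was 0.67, between 13.12 ± 0.40 in B6 HFD control and 12.45 ± 0.23 in CD8kMup HCC. Creld2 encodes an ER stress inducible protein with EGF-like domains, and its gap of 1.15 lay between 10.83 ± 0.78 in CD8kMup HCC and 9.68 ± 0.20 in MupHe NASH. Creld2 also had the widest range of group means, at 2.49, and Calr, which encodes the glycoprotein chaperone calreticulin, the narrowest, at 0.51.

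**Figure D2:**
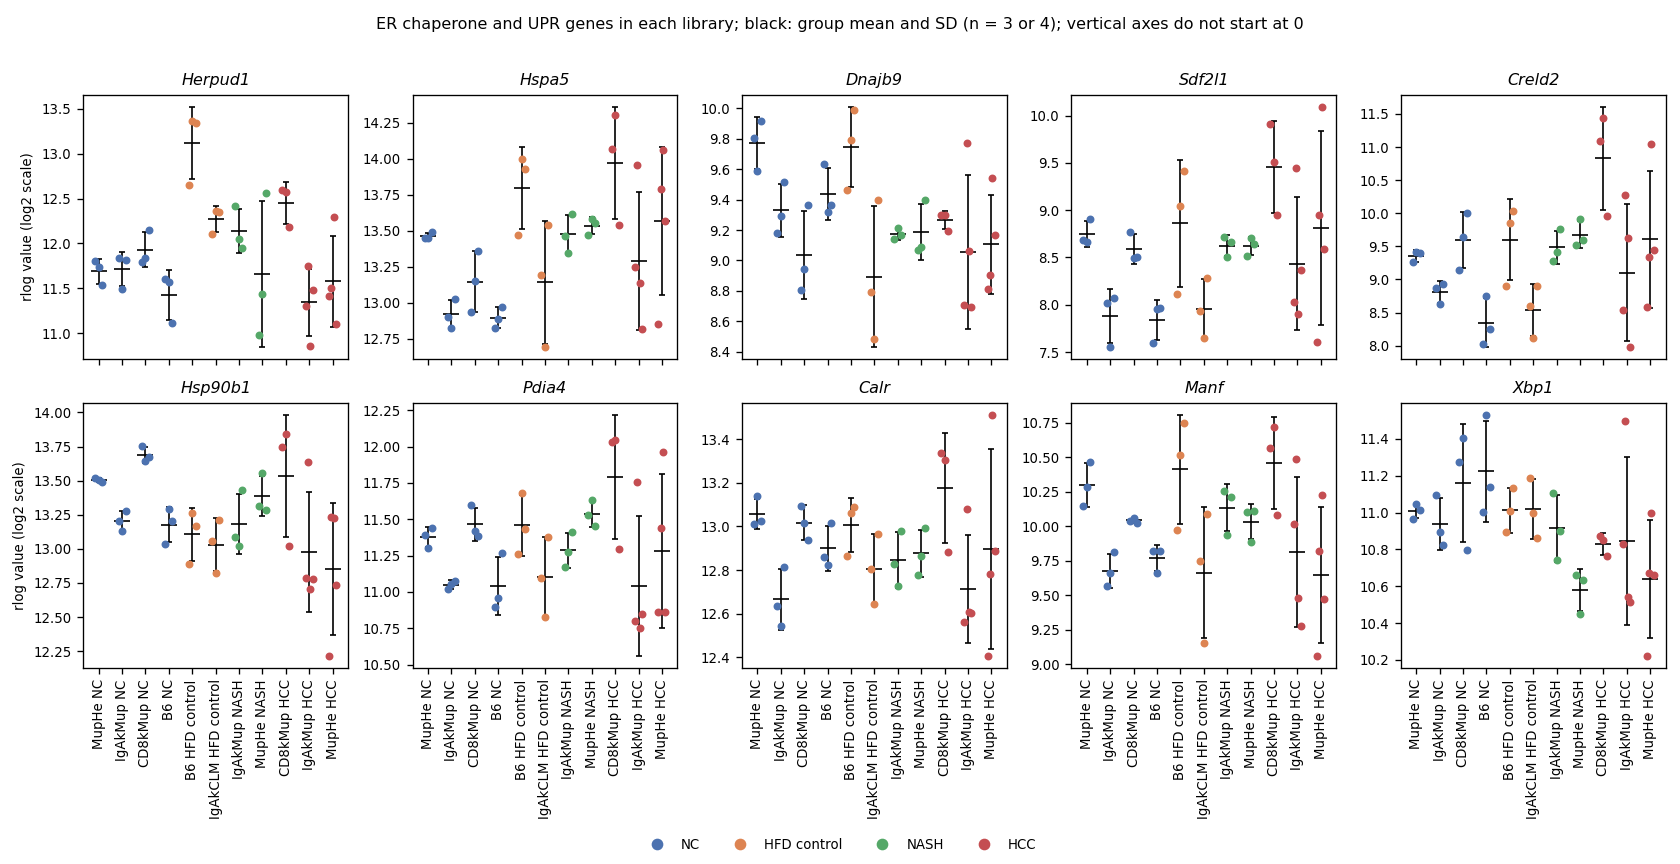
Rlog value (log2 scale, axes not starting at 0) of each gene in every library, by group from NC livers through HFD control and NASH to tumours, with group means and SDs. Herpud1 stood highest in B6 HFD control livers, at 12.66 to 13.37, and Creld2 in CD8kMup tumours, at 9.96 to 11.44.

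The first question was whether livers with Mup genotypes differed from B6 livers within the NC groups. MupHe NC livers had higher values of 6 of the 10 genes in every library, without overlap with B6 NC livers, while IgAkMup NC livers lay close to B6. CD8kMup NC livers again had 6 genes above B6 NC without overlap. Over all genes, 9.93% lay above B6 NC without overlap in MupHe, 11.7% in IgAkMup and 9.86% in CD8kMup livers. None of the 10 genes passed in limma with all groups, where few genes of any kind did (0.0486%, 0.122% and 0.073% in the same order). At an unadjusted p below 0.05 there were 3 members in MupHe, 0 in IgAkMup and 2 in CD8kMup livers.

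Hspa5 stood at 13.45, 13.45 and 13.49 in MupHe NC livers, against 12.83, 12.89 and 12.97 in B6 NC livers. The lowest MupHe library thus lay well above the highest B6 library, a difference of 0.57 ± 0.26 or 1.48-fold (adjusted p = 0.885, limma). The other Hspa5 means were 12.92 ± 0.10 in IgAkMup NC and 13.15 ± 0.21 in CD8kMup NC (SD, n = 3 each).

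Sdf2l1, which encodes a partner of BiP and its J-domain co-chaperones, stood at 8.68, 8.66 and 8.91 in MupHe NC and at 8.77, 8.50 and 8.50 in CD8kMup NC livers, against 7.60, 7.95 and 7.97 in B6 NC livers. Both Mup groups lay above B6 in every library. The differences were 0.91 ± 0.40 (adjusted p = 0.879, limma) and 0.75 ± 0.40 (0.865). IgAkMup NC livers overlapped with B6 at 8.02, 7.55 and 8.07.

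Creld2 showed the largest difference of the 10 genes in each Mup genotype. Its values were 9.26, 9.41 and 9.40 in MupHe NC, 8.86, 8.63 and 8.94 in IgAkMup NC and 9.15, 9.64 and 10.001 in CD8kMup NC, against 8.03, 8.75 and 8.25 in B6 NC livers. The differences from B6 were 1.01 ± 0.48 in MupHe, 0.47 ± 0.48 in IgAkMup and 1.25 ± 0.48 in CD8kMup livers (adjusted p = 0.907, 0.928 and 0.592, limma).

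Manf stood at 10.15, 10.29 and 10.47 in MupHe NC livers, against 9.82, 9.66 and 9.82 in B6 NC livers, which did not overlap (0.53 ± 0.26, adjusted p = 0.945, limma). Hsp90b1 encodes Grp94, the Hsp90 of the ER. It stood at 13.75, 13.64 and 13.67 in CD8kMup NC livers, all above the 13.04, 13.29 and 13.20 of B6 NC livers (0.51 ± 0.24, adjusted p = 0.76). Pdia4, a protein disulfide isomerase, was also higher in every CD8kMup NC library, at 11.38 to 11.60, than in B6 NC, at 10.90 to 11.27. Dnajb9 had the lowest difference in CD8kMup NC, at 8.81, 8.94 and 9.36, against 9.63, 9.32 and 9.36 in B6 NC livers, which overlapped (-0.40 ± 0.23, adjusted p = 0.914, limma). Xbp1 had a lower mean than B6 in each Mup genotype and overlapped with B6 in each. It averaged 11.01 ± 0.04 in MupHe, 10.94 ± 0.14 in IgAkMup and 11.16 ± 0.32 in CD8kMup, against 11.22 ± 0.27 in B6.

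The calls for NC livers depend on which libraries set the spread. With all 11 groups in the fit, the wide spread of the tumours entered every test. With only the 12 NC libraries in it, a fit added after the values were seen, 4 members rose in MupHe livers (Hspa5, Sdf2l1, Creld2 and Manf; adjusted p = 0.0158, 0.00794, 0.0254 and 0.0105, limma) and 4 in CD8kMup livers (Sdf2l1, Creld2, Hsp90b1 and Pdia4; 0.0212, 0.00764, 0.0091 and 0.0419), with 0 in IgAkMup livers. Over all genes 1.51%, 1.55% and 3.36% passed in that fit, in MupHe, CD8kMup and IgAkMup livers. With a block for the replicate number added to it, Pdia4 lost its call in CD8kMup livers. With only the 2 compared groups in the fit, 3 members passed in MupHe livers (Hspa5, Sdf2l1 and Creld2; 0.762% of genes) and 0 in CD8kMup livers (0.551% of genes). The median SD of the 10 genes was 0.08 in MupHe NC and 0.18 in B6 NC, against 0.50 in MupHe HCC, so the NC livers varied less than the pooled spread assumes.

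Averaged over the 3 Mup genotypes, 8 of 10 genes were above B6 NC, with a median difference of 0.27 against -0.0027 over all genes. No member passed (1 at an unadjusted p below 0.05; 0.203% of genes passed), while Sdf2l1 (0.57 ± 0.33), Creld2 (0.91 ± 0.39) and Hsp90b1 (0.29 ± 0.19) passed with the 4 NC groups alone (adjusted p = 0.0197, 0.00843 and 0.037, limma; 3.87% of genes). Hsp90b1 lost this call when a block for the replicate number was added. Of 111 tested genes in the 7 lists of other UPR and secretory pathway genes, 0 passed in any of the 4 NC comparisons in the fit of all groups. In the PERK and ATF4 branch, 1 of 14 genes passed: Atf3, a stress-induced transcription factor, was higher in the Mup genotypes than in B6 (2.18 ± 0.39, adjusted p = 0.00758). In CD8kMup alone it rose by 2.51 ± 0.48 (adjusted p = 0.0265), a call lost on leaving out any 1 of 5 libraries (0.0802 to 0.241). The mean of the 3 genotypes lost it on leaving out any 1 of the B6 NC libraries (0.0529 to 0.0846).

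None of the 43 tested genes in the 10 marker lists of liver, immune and other cell types passed in the NC comparisons. The summed hepatocyte markers lay at 19.6 to 19.8 in MupHe NC, 19.8 to 20.1 in IgAkMup NC and 19.90 to 20.02 in CD8kMup NC, against 19.6 to 19.8 in B6 NC livers. Plasma cells are rich in ER, and their marker Jchain averaged 6.66 in MupHe NC, 6.81 in IgAkMup NC and 5.71 in CD8kMup NC livers, against 5.32 in B6 NC livers. The summed level of the 6 plasma cell markers in the table was 11.03 to 11.24 in MupHe NC, 10.96 to 11.18 in IgAkMup NC and 10.86 to 11.14 in CD8kMup NC, against 10.75 to 11.66 in B6 NC livers. Sdc1 lay at 9.86 to 11.64 over all libraries and Jchain at 4.73 to 9.77, so in NC livers this sum followed mainly Sdc1 and hardly Jchain. Tnfrsf17 lay at -1.90 to -1.84 in every library, and it, Mzb1, Pou2af1 and Irf4 did not pass the filter. The clock output gene Dbp, which swings with time of day, averaged 8.75, 9.44 and 9.59 in the same Mup order, against 8.22 ± 2.42 in B6 (SD, n = 3). Summed recruited macrophage markers lay at 7.38 to 7.64 in MupHe NC, 7.68 to 8.52 in IgAkMup NC and 7.14 to 7.34 in CD8kMup NC, against 6.33 to 6.73 in B6 NC livers. Summed cholangiocyte markers lay at 10.01 to 10.35 in MupHe NC, 10.05 to 10.19 in IgAkMup NC and 9.83 to 10.13 in CD8kMup NC, against 9.07 to 9.39 in B6 NC livers. Both sums were thus higher in every Mup library than in every B6 library, in IgAkMup too. The part of these cells, of plasma cells and of sampling time in the differences was not tested.

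**Figure D3:**
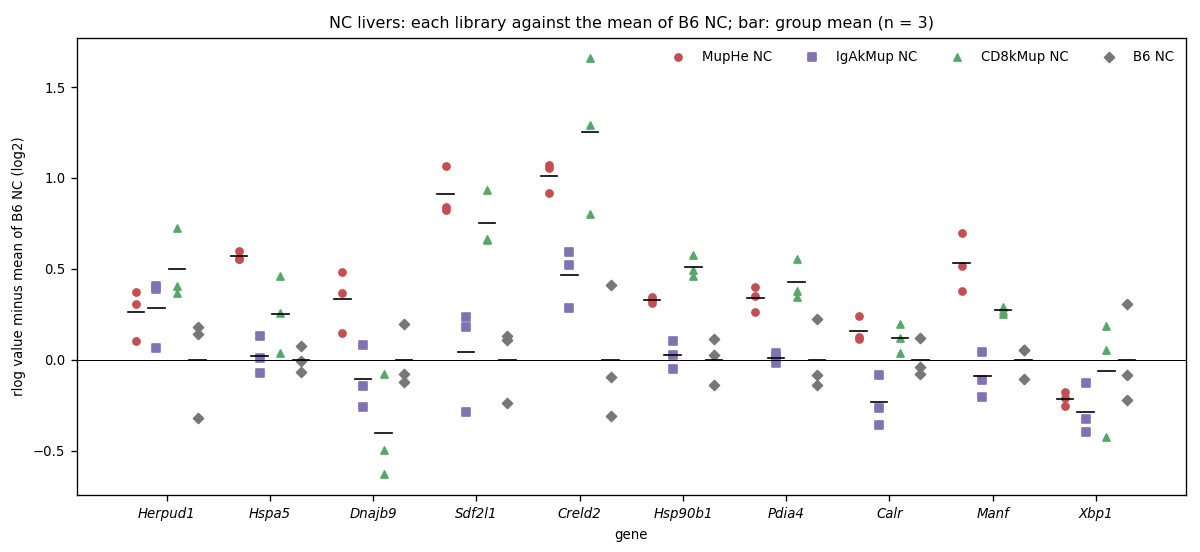
NC livers: value of each library minus the mean of B6 NC (log2) for the 10 genes, in MupHe, IgAkMup, CD8kMup and B6 mice, with bars at group means. MupHe libraries lay above all B6 libraries for 6 genes, and so did CD8kMup libraries; IgAkMup did so for 0.

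NASH was compared with fatty liver on HFD next, within each tag. Both NASH groups had Mup in their names and neither HFD control group did, so stage and genotype cannot be told apart here. Averaged over both pairs, Herpud1 was the single member that passed, and it was lower in NASH. The signs of the differences were mixed: 8 of 10 were above 0 for MupHe NASH minus IgAkCLM HFD control, and 9 of 10 below 0 for IgAkMup NASH minus B6 HFD control. The medians were 0.36 and -0.20, against -0.0029 and -0.003 over all genes.

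Herpud1 values were 12.42, 12.04 and 11.95 in IgAkMup NASH and 10.98, 11.43 and 12.56 in MupHe NASH, against 12.66, 13.37 and 13.34 in B6 HFD control and 12.10, 12.36 and 12.35 in IgAkCLM HFD control. IgAkMup NASH lay below B6 HFD control in every library, whereas MupHe NASH 6 lay above its IgAkCLM controls. Averaged over both pairs Herpud1 fell by 0.80 ± 0.21 in NASH (adjusted p = 0.0497, limma), in a comparison in which 1.32% of genes passed. The call was lost on leaving out any 1 of 9 of the 12 libraries (adjusted p up to 0.224, without MupHe NASH 1). Within the pairs the differences were -0.98 ± 0.29 for IgAkMup NASH (adjusted p = 0.22) and -0.62 ± 0.29 for MupHe NASH (0.476).

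In MupHe NASH against IgAkCLM HFD control, Sdf2l1, Creld2, Hsp90b1 and Pdia4 were higher in every NASH library, as were 13.6% of all genes. Creld2 stood at 9.52, 9.91 and 9.60 in MupHe NASH, against 8.60, 8.12 and 8.90 in IgAkCLM HFD control (1.14 ± 0.48). None of the 10 genes passed (3 at an unadjusted p below 0.05; 0.559% of genes passed). With these 2 groups alone in the fit, Creld2 (adjusted p = 0.0151), Sdf2l1 (0.67 ± 0.40; 0.0388) and Xbp1 (-0.44 ± 0.20; 0.0442) passed, as did 6.04% of genes. Xbp1 was the one of these with a lower level, at 10.66, 10.45 and 10.63 in MupHe NASH, against 11.19, 10.999 and 10.86 in IgAkCLM HFD control.

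In IgAkMup NASH, Herpud1 and Dnajb9 lay below B6 HFD control in every library, as did 8.71% of all genes. Dnajb9 encodes ERdj4, a J-domain co-chaperone of BiP. It stood at 9.14, 9.22 and 9.17 in IgAkMup NASH, against 9.47, 9.79 and 9.99 in B6 HFD control (-0.57 ± 0.23, adjusted p = 0.512, limma). No member passed (2 at an unadjusted p below 0.05; 0.251% of genes passed).

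The difference between the NASH pairs was tested, MupHe NASH minus IgAkCLM HFD control against IgAkMup NASH minus B6 HFD control. It was largest for Creld2 (1.25 ± 0.68, adjusted p = 1.00) and had its smallest adjusted p for Dnajb9 (0.86 ± 0.32, 0.833, limma). No member passed and 1 had an unadjusted p below 0.05, in a comparison where 0.0567% of genes passed. The pairs differ in tag and in genotype, so these cannot be told apart. The other UPR and secretory pathway lists held 0 called genes of 111 in these comparisons. In the PERK and ATF4 branch 3 of 14 genes passed over both pairs, all higher in NASH than in HFD control. They were Atf3 (1.74 ± 0.34), Nupr1 (1.60 ± 0.38) and Ddit3 (1.29 ± 0.32), with adjusted p of 0.00538, 0.0224 and 0.036 (limma). Atf3 averaged 6.74 ± 0.80 in IgAkMup NASH and 6.77 ± 0.41 in IgAkMup NC, and 7.42 ± 0.67 in MupHe NASH and 6.84 ± 0.30 in MupHe NC. It averaged 5.93 ± 0.89 in B6 HFD control, 4.74 ± 0.18 in IgAkCLM HFD control and 4.79 ± 0.12 in B6 NC livers (SD, n = 3 each). The part of genotype in these differences was not tested. Nupr1 lost its call on leaving out any 1 of 7 of the 12 libraries (adjusted p up to 0.0841) and Ddit3 on leaving out any 1 of 8 (up to 0.116). In MupHe NASH alone against IgAkCLM HFD control the same 3 genes passed, Atf3 at 2.68 ± 0.48, Nupr1 at 2.32 ± 0.53 and Ddit3 at 2.10 ± 0.46, and in IgAkMup NASH against B6 HFD control 0 of 14 did. The summed level of the branch was 12.53 to 12.57 in IgAkMup NASH and 12.60 to 12.64 in MupHe NASH, against 12.76 to 13.15 in B6 HFD control and 12.18 to 12.82 in IgAkCLM HFD control. Hspa8, a cytosolic chaperone, fell by 0.47 over both pairs and lost its call when any 1 of 7 libraries was left out (adjusted p up to 0.134, limma). Of 43 marker genes 1 passed over both pairs, the hepatocyte factor Hnf4a (-0.40 ± 0.09). Summed recruited macrophage markers lay at 7.83 to 7.95 in MupHe NASH, against 6.45 to 6.54 in IgAkCLM HFD control, and cholangiocyte markers at 9.99 to 10.21, against 9.02 to 9.11, without overlap. In the other pair the macrophage sum was 7.44 to 7.98 in IgAkMup NASH, against 6.55 to 7.75 in B6 HFD control, and the cholangiocyte sum 10.52 to 10.91, against 9.44 to 10.02. Their part in the differences was not tested.

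Tumours were then set against NASH livers. In the mean of MupHe and IgAkMup 0 of the 10 members passed, where 48.4% of all genes did (2 members at an unadjusted p below 0.05). All 10 differences were below 0, with a median of -0.16 against 0.01 over all genes. The lowest were Herpud1 (-0.44 ± 0.20, adjusted p = 0.0666), Hsp90b1 (-0.37 ± 0.16, 0.0531) and Manf (-0.35 ± 0.18, 0.0975, limma).

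Single tumours decided these calls. Without MupHe HCC 4, in which all 10 genes were high, 4 members passed (50.6% of all genes), and likewise 4 without IgAkMup HCC 7 (49.1% of all genes), shares below those of all genes. Among them was Hsp90b1 at -0.43 and -0.48 (adjusted p = 0.0242 and 0.00653). Without MupHe HCC 3 Hsp90b1 passed (-0.43, 0.0242), and without MupHe NASH 1 Herpud1 did (-0.60, 0.0115). Without the 3 tumours that stood apart, the median of the members moved to 0.02. Under quantile normalization Hsp90b1 turned to 0.02, and the 1 member that passed was higher in tumours.

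Herpud1 fell in IgAkMup tumours. Its values were 11.30, 11.74, 10.86 and 11.48 in IgAkMup HCC, against 12.42, 12.04 and 11.95 in IgAkMup NASH, so every tumour lay below every NASH liver (-0.79 ± 0.28, or 1.73-fold lower, adjusted p = 0.0213, limma). It was the 1 member that passed there, where 43.8% of genes did. The call was lost without IgAkMup HCC 8 (-0.63, adjusted p = 0.0758) or IgAkMup NASH 2 (-0.65, 0.11), without the 3 divergent tumours (-0.84, 0.0508), and under quantile normalization (-0.13, 0.732). Library weights lost it too (-0.71, adjusted p = 0.0819, limma).

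In MupHe tumours Herpud1 overlapped with NASH. It was 11.41, 11.504, 12.29 and 11.11 in MupHe HCC, against 10.98, 11.43 and 12.56 in MupHe NASH (-0.08 ± 0.28, adjusted p = 0.86). The sign turned without MupHe NASH 6 (0.37). In MupHe tumours 0 members passed, against 30.7% of all genes, and 1 had an unadjusted p below 0.05, Hsp90b1 (-0.53 ± 0.22, adjusted p = 0.0679, limma), which passed without MupHe HCC 3 (-0.66, 0.0301) or MupHe HCC 4 (-0.65, 0.0307). Here SS H tumours meet Tri N livers, so stage and tag cannot be told apart. The test of the difference between the tumour contrasts of both genotypes called 0 members (0 at an unadjusted p below 0.05; 10% of genes passed); for Herpud1 it gave -0.72 ± 0.39 (adjusted p = 0.249), and -1.17 (0.0386) without MupHe NASH 6.

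Other genes of the pathway split in tumours against NASH, with 16 higher and 26 lower of 111, a share below the 48.4% of all genes that passed. The sensors Eif2ak3, which encodes PERK (0.44 ± 0.09), Atf6b (0.30 ± 0.09) and Atf6 (0.27 ± 0.11) rose, 3 of 6 in the list, with Atf6 losing its call on leaving out any 1 of 7 libraries (adjusted p up to 0.096). Of 22 ERAD genes 7 fell, 2 rose and the others did not pass. Those that fell included the ubiquitin ligase complex genes Sel1l (-0.75 ± 0.17) and Syvn1 (-0.49 ± 0.15) and the mannosidase-like Edem1 (-0.39 ± 0.11). Edem1 lost its call under quantile normalization (-0.17, adjusted p = 0.206, limma) and with only the compared groups in the fit (0.0566). Without the 3 divergent tumours Edem1 (-0.22, 0.0874) and Syvn1 (-0.33, 0.0765) lost theirs. ER to Golgi transport had 8 lower and 2 higher of 22, led by the coat genes Sec23a (-1.01 ± 0.17) and Sar1b (-0.77 ± 0.09).

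Among 23 other ER chaperones and foldases, again a smaller share than over all genes, 5 fell, with the thioredoxin-like Tmx1 (-0.52 ± 0.11) and Hyou1 (-0.46 ± 0.17) lowest, and 2 rose, Dnajc10 (1.02 ± 0.15) and Erp29 (0.31 ± 0.11). Hyou1 lost its call on leaving out any 1 of 7 libraries and Erp29 any 1 of 3, with adjusted p up to 0.0788 and 0.0691. N-glycosylation genes had 3 higher and 2 lower of 13, with the oligosaccharyltransferase subunit Rpn2 highest (0.41 ± 0.09). Translocon genes had 2 higher and 3 lower of 21. Of the 4 other ER membrane bZIP genes, 2 rose and the hepatocyte factor Creb3l3 fell by 0.45 ± 0.08. Creb3l3 lost its call under quantile normalization (-0.15, adjusted p = 0.0596, limma). In the PERK and ATF4 branch 6 of 14 genes rose and 1 fell, led by Asns (1.56 ± 0.52), which makes asparagine, and Trib3 (1.04 ± 0.26); Asns lost its call without IgAkMup NASH 6 (1.23, adjusted p = 0.0622).

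Cell markers also differed between the stages. In HCC against NASH 27 of 43 marker genes over the 10 lists passed, against 48.4% of all genes. Among them 5 of 8 hepatocyte markers and 5 of 5 Kupffer cell markers fell, and 4 of 5 recruited macrophage markers rose. The summed hepatocyte level was 19.1 to 20.4 in IgAkMup HCC and 18.7 to 19.7 in MupHe HCC, against 19.7 to 20.1 in IgAkMup NASH and 19.7 to 19.9 in MupHe NASH. Jchain averaged 8.10 in IgAkMup HCC and 6.06 in MupHe HCC, against 6.47 and 6.81 in NASH of the same genotypes. Pancreatic acinar cells are also rich in ER, and 6 of their 7 markers did not pass the filter, with Cpa1, Pnlip, Cel and Ctrb1 below 0 and Amy2a5 listed at 0. The part of cell composition in the values of the 10 genes was not tested.

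MupHe and IgAkMup tumours had the widest spread among libraries of a group. The median SD of the 10 genes was 0.50 in MupHe HCC, 0.48 in IgAkMup HCC and 0.36 in CD8kMup HCC, against 0.08 to 0.30 in the 8 groups of livers. Over all genes the median SDs were 0.30 in MupHe HCC, 0.26 in IgAkMup HCC and 0.157 in CD8kMup HCC, against 0.109 to 0.1565 in livers, so CD8kMup tumours were close to the livers there. The spread was shared by the members: MupHe HCC 4 lay above its group mean in all 10 genes, by 0.70 on average, and MupHe HCC 2 below it in all 10, by -0.59. IgAkMup HCC 7 was above in all 10 (0.70), and CD8kMup HCC 8 was below in all 10 (-0.39).

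Creld2 and Sdf2l1 had wide ranges within the tumour groups. Creld2 stood at 8.59, 9.35, 11.04 and 9.45 in MupHe HCC and at 8.53, 10.28, 9.62 and 7.98 in IgAkMup HCC. Sdf2l1 stood at 7.61, 8.95, 10.09 and 8.59 in MupHe HCC and 8.03, 9.44, 7.90 and 8.37 in IgAkMup HCC. In both genes MupHe HCC 4 and IgAkMup HCC 7 were the highest of their groups.

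CD8kMup tumours had higher means than MupHe tumours for all 10 genes, with a median difference of 0.58 against -0.01 over all genes. Creld2 stood at 11.09, 11.44 and 9.96 in CD8kMup HCC, against 8.59, 9.35, 11.04 and 9.45 in MupHe HCC (1.23 ± 0.45, adjusted p = 0.161, limma). Herpud1 stood at 12.60, 12.57 and 12.19 in CD8kMup HCC, against 11.41, 11.504, 12.29 and 11.11 in MupHe HCC (0.87 ± 0.28, 0.104). MupHe HCC 4 lay within the CD8kMup range for both genes, and the 2 groups overlapped in every member (0 of 10 without overlap, against 3.4% of all genes higher without it).

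No member passed in that comparison (5 at an unadjusted p below 0.05; 1.32% of genes passed). The differences of the remaining 3 of those 5 genes were 0.81 ± 0.25 for Manf, 0.68 ± 0.22 for Hsp90b1 and 0.51 ± 0.23 for Pdia4. Without MupHe HCC 4, 7 members passed, with Creld2 at 1.71 and Manf at 1.00 (adjusted p = 0.0126 and 0.0135, limma, with 8.82% of genes). That tumour was high in all 10 genes, so leaving it out raises the differences, and these calls are no separate support. Over all genes, 0 passed with only these groups in the fit and 9 without CD8kMup HCC 4. Without the 3 divergent tumours 2 passed, Hsp90b1 (0.04) and Manf (0.0497), with 4.3% of genes.

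Between IgAkMup and MupHe tumours no difference of a member passed. Of 10 genes 3 were higher and 7 lower, from -0.50 ± 0.42 for Creld2 to 0.21 for Xbp1, and 0 passed (0 at an unadjusted p below 0.05; 10.1% of genes passed). Creld2 turned to 0.26 without the 3 divergent tumours. Of other genes, 6 of 7 mitochondrial chaperone genes fell in IgAkMup tumours, with Trap1 lowest (-0.83, adjusted p = 0.000676, limma). The plasma cell marker Jchain was higher there (2.04 ± 0.46, adjusted p = 0.006), and its part in the values of the 10 genes was not tested.

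The last comparisons set HFD livers and tumours against NC livers of the same genotype. The submitters' notes name different programs for HFD and NC samples, and a joint transformation is not stated. Diet and processing thus cannot be told apart in these comparisons. In B6 mice Herpud1 and Hspa5 were higher in HFD control than in NC livers. Herpud1 stood at 12.66, 13.37 and 13.34 in B6 HFD control, against 11.61, 11.57 and 11.11 in B6 NC livers, with no overlap (1.69 ± 0.29 or 3.23-fold, adjusted p = 0.000176, limma). Hspa5 stood at 13.47, 13.997 and 13.93 in B6 HFD control, against 12.83, 12.89 and 12.97 in B6 NC (0.90 ± 0.26 or 1.87-fold, 0.0142). These were 2 of 10 members, against 20.6% of all genes, a share near the background. Herpud1 kept its call with each of the 6 libraries left out and under all 6 other alternatives run, whereas Hspa5 lost its call without B6 HFD control 2, B6 HFD control 3 or B6 NC 1 (0.0527 to 0.0601).

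Creld2 (1.25 ± 0.48), Sdf2l1 (1.02 ± 0.40) and Manf (0.64 ± 0.26) were also higher in every B6 HFD control library than in B6 NC, but did not pass (adjusted p = 0.0633, 0.069 and 0.0847, limma). In all, 5 of 10 members lay above B6 NC without overlap, against 21.7% of all genes. B6 HFD control 1 was the lowest HFD library in each of the 5. Without it all 5 passed (13.8% of genes). Leaving out a library that is low in these genes raises their differences, so these calls are no separate support. With the 2 B6 groups alone in the fit 5 passed too (21.5% of genes).

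Beside the members, 11 of the 111 other UPR and secretory pathway genes rose in B6 HFD livers and 3 fell, a smaller share than the 20.6% over all genes. Sdf2, a paralogue of Sdf2l1 (0.71 ± 0.14), the ERAD gene Derl1 (0.75 ± 0.17), Eif2ak3 (0.62 ± 0.13) and the ER retrieval receptor gene Kdelr1 (0.48 ± 0.12) rose, while Ern1, which encodes IRE1, fell by 0.82 ± 0.20. P4hb rose by 0.67 ± 0.24 (adjusted p = 0.0427) and lost its call on leaving out any 1 of the 6 libraries (up to 0.132). The PERK and ATF4 branch rose in 7 of 14 genes, led by Chac1 (2.05 ± 0.36), which degrades glutathione, Vldlr (1.86 ± 0.50) and Trib3 (1.47 ± 0.40). Cytosolic heat shock genes rose in 4 of 9, with Hspa1b at 1.65 ± 0.48 and Dnajb1 at 1.08 ± 0.15. Without single libraries the calls of Ern1, Trib3 and Hspa1b were lost (adjusted p up to 0.0563, 0.0856 and 0.0649).

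In MupHe livers no member passed. Hspa5 stood at 13.47, 13.58 and 13.55 in MupHe NASH, against 13.45, 13.45 and 13.49 in MupHe NC. Both sets lay above the 12.83 to 12.97 of B6 NC. Over the 10 genes 3 were higher and 7 lower, with a median of -0.12 against -0.0021 over all genes, and 0 passed (2 at an unadjusted p below 0.05; 1.93% of genes passed). The lowest were Dnajb9 (-0.59 ± 0.23) and Xbp1 (-0.43 ± 0.20), with adjusted p of 0.216 and 0.329. Both passed with only these 2 groups in the fit (0.0071 and 0.00489, limma; 15.6% of genes).

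In IgAkMup livers, in 6 of 10 members every NASH library was above every IgAkMup NC library, against 22.6% of all genes, yet 0 passed (1 at an unadjusted p below 0.05; 12.9% of genes passed). Hspa5 stood at 13.47, 13.35 and 13.61 in IgAkMup NASH, against 12.90, 12.82 and 13.03 in IgAkMup NC (0.56 ± 0.26, adjusted p = 0.165, limma). Sdf2l1 (0.74 ± 0.40) and Creld2 (0.68 ± 0.48) had adjusted p of 0.24 and 0.401. With the 2 groups alone these 3 genes passed (0.00342, 0.00248 and 0.00318), 5 members in all, where 29.2% of genes passed. Sdf2 (0.50 ± 0.14), Derl1 (0.54 ± 0.17) and Kdelr1 (0.43 ± 0.12) rose and Ern1 fell by 0.83 ± 0.20, each losing its call without at least 2 of the 6 libraries (adjusted p up to 0.107, 0.127, 0.0864 and 0.0738).

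CD8kMup tumours had higher Hspa5 and Creld2 than CD8kMup NC livers. Hspa5 stood at 14.07, 14.30 and 13.54 in CD8kMup HCC, against 12.93, 13.15 and 13.36 in CD8kMup NC livers (0.82 ± 0.26 or 1.77-fold, adjusted p = 0.0155, limma). Creld2 stood at 11.09, 11.44 and 9.96, against 9.15, 9.64 and 10.001 in CD8kMup NC livers, where CD8kMup HCC 8 overlapped (1.24 ± 0.48 or 2.36-fold, 0.0476). These were 2 of 10 members, a share below the 33.8% of all genes, and 3 members had an unadjusted p below 0.05. Both calls were lost without CD8kMup HCC 3, CD8kMup HCC 4 or CD8kMup NC 1 (adjusted p of 0.0565 to 0.0887 for Hspa5 and 0.142 to 0.199 for Creld2), and Creld2 also without CD8kMup NC 2 (0.0911).

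Sdf2l1 was 0.86 ± 0.40 higher there and did not pass (adjusted p = 0.0953). Of the other UPR and secretory pathway genes 16 rose and 9 fell of 111, a smaller share than the 33.8% over all genes, with Mcfd2 (0.94 ± 0.16), a cargo receptor subunit, Derl1 (0.89 ± 0.17), Sdf2 (0.73 ± 0.14) and Erp29 (0.70 ± 0.17) higher and Ern1 lower (-0.84 ± 0.20). The PERK and ATF4 branch rose in 9 of 14 genes, led by Nupr1 (2.10 ± 0.53), Ddit4 (1.70 ± 0.24) and Ddit3 (1.51 ± 0.45); Ddit3 lost its call without CD8kMup HCC 3, CD8kMup HCC 4 or CD8kMup NC 1 (adjusted p up to 0.085).

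**Figure D4:**
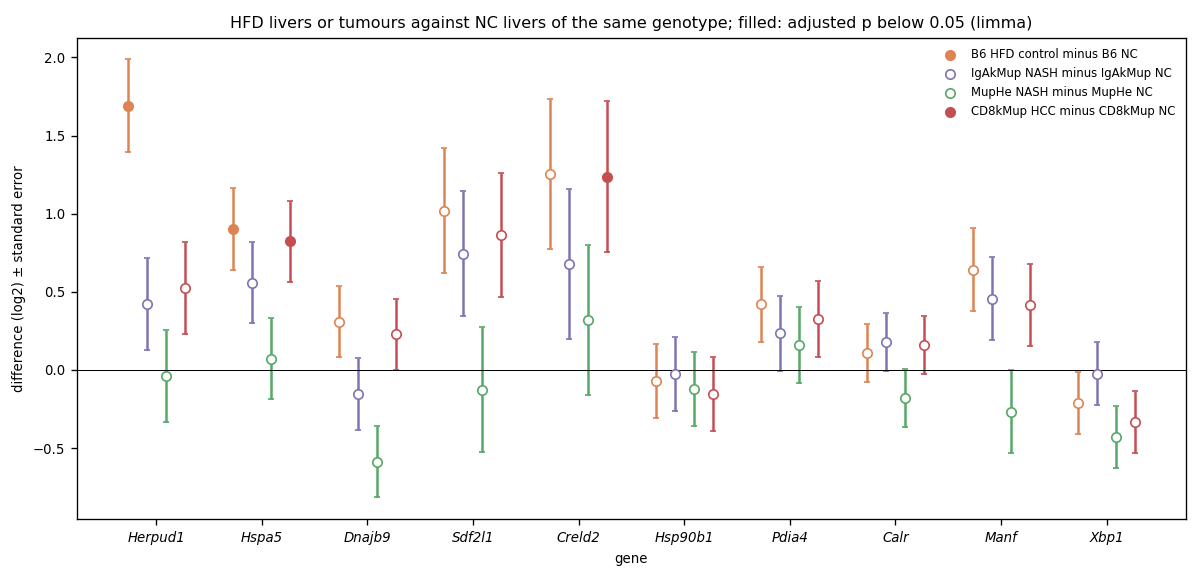
Difference (log2) with standard error of each gene between HFD livers or tumours and NC livers of the same genotype, with filled points where the adjusted p lay below 0.05. Filled points are Herpud1 (1.69) and Hspa5 (0.90) in B6 and Hspa5 (0.82) and Creld2 (1.24) in CD8kMup; MupHe points lie lowest in 9 of the 10 genes.

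The HFD differences were compared between genotypes, in tests added after the values were seen. For all 10 genes the difference was smaller in MupHe (NASH minus NC) than in B6 (HFD control minus NC), with a median of -0.86 against -0.01 over all genes. Herpud1 was the single member that passed (-1.73 ± 0.42, adjusted p = 0.0402, limma; 0.867% of genes passed), and its call was lost on leaving out any 1 of 10 of the 12 libraries (up to 0.151). It was also lost with no filter (0.0606), under quantile normalization (-1.496, 0.108) and with only the 4 compared groups in the fit (0.0609), where Hspa5 (0.0378) and Dnajb9 (0.0417) passed instead, with 2.36% of genes. Dnajb9 (-0.90 ± 0.32) and Hspa5 (-0.83 ± 0.37) did not pass (0.24 and 0.36), and 4 members had an unadjusted p below 0.05. In IgAkMup the Herpud1 value was -1.27 ± 0.42 (adjusted p = 1.00); 0 members passed, with 1 at an unadjusted p below 0.05, and 0% of genes passed.

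The tags moved with these results. B6 and IgAkMup pairs set SS N against Tri NC livers, and the MupHe pair sets Tri N against Tri NC. The CD8kMup pair sets SS H tumours against Tri NC livers, so tag, stage and diet cannot be told apart in it. The fatty livers of IgAkCLM carry Tri N and had lower means than those of B6, with the tag SS N, in 9 of the 10 genes; Herpud1 averaged 12.27 ± 0.145 in IgAkCLM HFD control, against 13.12 ± 0.40 in B6 HFD control. Genotype and tag cannot be told apart between these fatty livers, nor diet, stage and tag between HFD and NC livers of 1 genotype. In the comparison of HFD differences between genotypes, genotype, stage and tag cannot be told apart. Clock genes moved as well: Per3 fell by 1.88 ± 0.55 and Per2 by 1.54 ± 0.39 in B6 HFD livers, and by 1.70 ± 0.55 and 1.31 ± 0.39 in IgAkMup NASH, against NC livers. The summed level of the 12 clock output genes was 11.20 to 11.69 in MupHe NASH, against 11.92 to 12.22 in MupHe NC, without overlap. In CD8kMup tumours against CD8kMup NC 7 of 12 clock output genes fell and 2 rose, with summed levels of 10.95 to 11.33 in CD8kMup HCC, against 12.15 to 12.59 in CD8kMup NC. There 16 of 43 marker genes passed, among them 3 of 8 hepatocyte markers, lower, where 33.8% of all genes passed. In B6 HFD control against B6 NC 4 of 43 did, a smaller share than the 20.6% of all genes. The calls of Per2 and Per3 were lost without single libraries (adjusted p up to 0.118 and 0.19), and the part of sampling time was not tested.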

How the data were processed

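PolyA RNA of mouse liver and liver tumours was sequenced from TruSeq Stranded mRNA libraries, per the labels' protocols, and RNA came from the AllPrep kit or, for part of the livers, from Trizol and RNeasy. STAR with Cuffdiff (HFD samples) and STAR with HOMER and DESeq2 (NC samples), on mm10, are named in the submitters' processing notes, without versions. The authors deposited regularized log2 values in 1 table of 24511 genes and 41 columns; the program that made them is not given in the sources used here, nor is it stated if the 2 sets were transformed jointly. The regularized transform pulls weakly expressed genes to their average, which can make their differences look smaller. NC columns matched single samples and the others a group only, and libraries are named by the number in the label or column. The names of 6 columns fitted 2 groups, and these were not used.

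Genes with a mean of at least 3 were kept. All 11 groups entered 1 limma fit (limma 3.58.1, R 4.3.3) with eBayes and trend, with two-sided tests, Benjamini-Hochberg adjustment over 12337 genes and a threshold of 0.05. The script was tested on simulated data. Alternatives were no filter, a mean of at least 5, median centring, quantile normalization, library weights, only the compared groups, a replicate block, and each library left out. The fit of the 12 NC libraries without a block, for single genotypes, the fits without 3 tumours and both comparisons of HFD differences were added after the values were seen. The members and lists were chosen with earlier results of these data known. All members were named, and from each other list up to 3 called genes with the highest and lowest difference, of which a selection is printed. The likeness rule took 5 genes by Pearson r with the mean of the scaled members, of which 1 is not reported here. Promoter windows came from RefSeq (GRCm38.p6), and the plus and minus strands were searched.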

Additional observations from a re-analysis of the deposited data

Results flagged for a closer look

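In IgAkMup tumours, 3 genes had 1 library far above the other 3 of the group. Its gap to the nearest, divided by the range of the group, exceeded Dixon's critical value of 0.829 for 4 samples. IgAkMup HCC 7 stood at 13.6 for Hsp90b1, against 12.70 to 12.79 in the other tumours of the group, at 11.8 for Pdia4, against 10.76 to 10.85, and at 13.1 for Calr, against 12.56 to 12.61. Of 20 sets of 4 tumours examined, chance alone marks about 1 in 20. The 3 marks come from 1 library, in which all 10 genes lay above the group mean. The difference of Herpud1 between HFD and NC livers differed between MupHe and B6 mice by -1.73 (adjusted p = 0.0402, limma; 0.0609 with only the compared groups in the fit, 0.0606 with no filter and 0.108 under quantile normalization), and tag, genotype and disease stage cannot be told apart in it.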

How the results depend on the processing

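The counts below are of the 10 members that passed, and the cause of each change was not tested unless the setting itself names it. With no filter there were 0 for NASH against HFD control, 1 for CD8kMup HCC against NC and 0 for the MupHe minus B6 difference of HFD differences. Shares over all genes were 0.767%, 21.5% and 0.576% in the same order. Median centring gave 0 for NASH and 2 for HCC against NASH, both lower in HCC (1.3% and 49.1% of all genes). Quantile normalization gave 0 for NASH, 1 for HCC against NASH and 0 for the MupHe difference of HFD differences. The 1 member was higher in HCC, whereas all 10 differences were below 0 in the main fit. Of all genes 1.02%, 48.7% and 0.519% passed there. Quantile normalization also turned Hsp90b1 to 0.0246 for HCC against NASH, Herpud1 to 0.0723 in MupHe HCC against NASH, and Hsp90b1 to 0.42 in IgAkMup HCC against NASH.

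Library weights gave 1 for CD8kMup NC against B6 NC, 3 for NASH, 5 for MupHe NASH against IgAkCLM, 1 for IgAkMup NASH against B6 HFD control, 1 for HCC against NASH, 1 for MupHe HCC and 0 for IgAkMup HCC against NASH. Shares over all genes were 1.43%, 19.3%, 15.7%, 5.81%, 43.6%, 21.5% and 44.6% in the same order. Weights gave 4 for B6 HFD control, 2 for MupHe NASH, 2 for IgAkMup NASH and 5 for CD8kMup HCC, each against NC of its genotype, and 2 for the MupHe difference of HFD differences (7.2% of all genes). Over all genes, weights let 33.3% pass for B6 HFD control, 20.1% for MupHe NASH, 40.2% for IgAkMup NASH and 50.9% for CD8kMup HCC against NC. Herpud1 in MupHe HCC against NASH turned to 0.0147.

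With only the compared groups in the fit, 3 passed for MupHe NC, 0 for CD8kMup NC, 3 for the mean of the Mup genotypes and 3 for MupHe NASH against IgAkCLM. Of all genes 0.762%, 0.551%, 3.87% and 6.04% passed there. There were 5 for B6 HFD control, 2 for MupHe NASH, 5 for IgAkMup NASH and 4 for CD8kMup HCC against NC, and 2 for the MupHe difference of HFD differences, Hspa5 and Dnajb9 but not Herpud1. Shares over all genes were 21.5%, 15.6%, 29.2%, 41.8% and 2.36% in the same order. Without the 3 tumours that stood apart, 1 passed for MupHe HCC and 0 for IgAkMup HCC against NASH, 2 passed for CD8kMup against MupHe HCC, and Creld2 turned to 0.26 for IgAkMup against MupHe HCC. Of all genes 34%, 40.8% and 4.3% passed, in the order of these counts.

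In NC livers same-numbered libraries had correlations of deviations between -0.21 and 0.23 over 18 pairs. Of 12 libraries 5 correlated best with their own number. No pairing by number was seen, which groups of 3 libraries cannot exclude. With the replicate block, NC libraries alone gave 4 for MupHe, 3 for CD8kMup and 2 for the mean of the genotypes, against 4, 4 and 3 without the block. Of all genes 0.916%, 1.29% and 3.13% passed with it. The calls lost were Pdia4 in CD8kMup and Hsp90b1 in the mean. No paired analysis was possible because HFD columns carry no replicate number of the labels.

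With each library left out in turn, the count ranged from 0 to 1 for NASH, 0 to 4 for HCC against NASH, 0 to 1 for MupHe HCC, 0 to 1 for IgAkMup HCC, 0 to 1 for the difference of the tumour contrasts, 1 to 5 for B6 HFD control against NC, 0 to 2 for CD8kMup HCC against NC, 0 to 7 for CD8kMup against MupHe HCC and 0 to 1 for the MupHe difference of HFD differences. It stayed at 0 in the other 11 comparisons. Herpud1 in MupHe HCC against NASH ranged from -0.42 to 0.37. Over all genes, MupHe NC against B6 NC gave 6 called genes and 186 with NC libraries alone, NASH gave 163 and 2386 with library weights, and CD8kMup against MupHe HCC gave 163, 0 with these groups alone and 1088 without MupHe HCC 4. Of the values of single genes under the other alternatives, 572 kept their side of the threshold, 61 moved past it, 34 lost it and 5 turned.

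Groups of 3 or 4 libraries and an unknown depth limit the precision.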
